A study of Mus musculus with 10 samples.

Results

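The 37 genes described here encode enzymes and carriers of the tricarboxylic acid (TCA) cycle (13 genes) and of mitochondrial fatty acid oxidation (24 genes). Their probes were found by gene symbol in the array's platform annotation, and the gene list was drawn up with earlier results of these data known. Of these, 36 had at least 1 probe, among 19532 genes with a probe on the array, and all 36 had a value in all 8 skin samples. Acsl1, which activates long-chain fatty acids, was not analysed here. The TCA cycle burns the acetyl group of acetyl-CoA in the mitochondrial matrix and passes the electrons to the respiratory chain. Fatty acid oxidation supplies much of that acetyl-CoA: fatty acids are taken up, coupled to carnitine to cross the inner membrane, and shortened in repeated rounds of dehydrogenation, hydration, dehydrogenation and thiolysis. In skin, the striated muscle sheet below the dermis and the fat layer are the tissues best known for oxidising or storing fatty acids.

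All samples were skin of mice with the Tsk2 genotype, a tight-skin mutant used to model scleroderma. Its mutation lies in Col3a1, a fibrillar collagen gene. The labels call the animals transgenic, while the study's design names them Tsk2/+. There were 4 skin samples at 1 month of age and 4 at 4 months, each hybridised in Cy3 against a reference RNA labelled UMR in Cy5, and 1 sample of each age was hybridised on 2 arrays. The study set several mouse models of skin fibrosis beside human disease, and wild-type skin was not analysed here. Every group therefore carries Tsk2, and the contrast is age within that genotype. Strain and sex were not given. The sample titles hold 2 ID numbers at 1 month and 3 at 4 months, with up to 2 samples a number, and whether a number stands for an animal or a litter was not given. The p-values therefore measure the spread between these samples, part of which may be technical, and 4 samples an age limit the precision.

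Each value is a log2 ratio, taken in the direction of skin over reference, which is the deposited sign reversed. This direction is likely and not stated, since the table does not name the numerator. After the turn, the median of an epidermis marker list lay between 4.71 and 6.30 and that of a skeletal muscle list between 4.26 and 7.09 over the 10 arrays, while a cell division list lay between -3.65 and -0.41. A B cell list, above 0 on 6 arrays and below 0 on 4, decided nothing. The epidermis list, which defines skin, was thus above 0 on all 10 arrays. The arrays held 21665 to 30425 values other than an exact 0, which was read as not measured. As a ratio is relative to the reference, ratios of different genes do not rank their levels, and the age difference of each gene is the quantity compared. The samples with the highest skeletal muscle list means were 1-month sample 2, at 5.91, and 4-month sample 3, at 6.91. The other samples lay between 4.39 and 5.77, and main counts are given with and without that pair. The same pair had the highest epidermis list means, at 6.22 and 6.50, against 4.79 to 5.46 in the other samples.

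Some members of each pathway rose with age and none was called lower, and the greatest differences were those of Fabp3 and Cpt1b in fatty acid oxidation. In the TCA cycle, 4 of 13 members rose from 1 to 4 months, and in fatty acid oxidation 6 of 23 members rose (limma with the ID number as a random block, Benjamini-Hochberg adjusted p under 0.05 over 13501 genes). Over all genes tested, 4.19% were called higher and 3.06% lower. No member was called lower by limma, and at an unadjusted p under 0.05 there were 8 TCA members and 12 oxidation members, all higher at 4 months. Of all genes, 13.2% were higher at that unadjusted p, and 24.3% passed it in either direction. All 13 TCA members and 20 of 23 oxidation members had a difference above 0, against 52.3% of all genes. The median difference was 0.92 in the TCA cycle, 0.68 in fatty acid oxidation and 0.03 over all genes. The samples of the ages did not overlap, with 4 months higher, in 9 TCA members and 10 oxidation members, against 10.9% of all genes. The mean over the 13 TCA members was 0.20, 0.03, 0.12 and 0.04 in 1-month samples 1 to 4 and 1.16, 1.31, 1.08 and 0.52 in 4-month samples 1 to 4. The mean over the 23 oxidation members was 1.04, 0.63, 0.83 and 0.92 at 1 month and 2.01, 1.95, 1.66 and 1.25 at 4 months. Every 4-month sample lay above every 1-month sample in both means (the 4-month minimum was 0.52 against a 1-month maximum of 0.20 in the TCA cycle), and 4-month sample 4 was the lowest of its age in both.

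The counts of calls moved with single samples, and so did the share of all genes called higher in the same fits. Without 4-month sample 4, 9 TCA members and 11 oxidation members were called, against 9.46% of all genes. Without 1-month sample 1 these were 0 and 2, against 0.79%, and without 1-month sample 2 they were 2 and 4, against 3.03%. Without 4-month sample 1 they were 1 and 3, against 2.27%, without 4-month sample 2 also 1 and 3, against 2.26%, and without 4-month sample 3 they were 0 and 4, against 2.05%. Over all 8 fits without 1 sample, the median difference stayed between 0.76 and 1.15 in the TCA cycle and between 0.57 and 0.85 in fatty acid oxidation. The samples highest in both muscle and epidermis markers were 1-month sample 2 and 4-month sample 3. Without that pair, 2 TCA members and 5 oxidation members were called, against 3.61% of all genes. With 1 mean per ID number, 2 against 3 values, no gene of the 13 TCA and 23 oxidation members passed the limma test, and 6 TCA members and 7 oxidation members had an unadjusted p under 0.05, as did 17.7% of all genes.

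**Figure D1:**
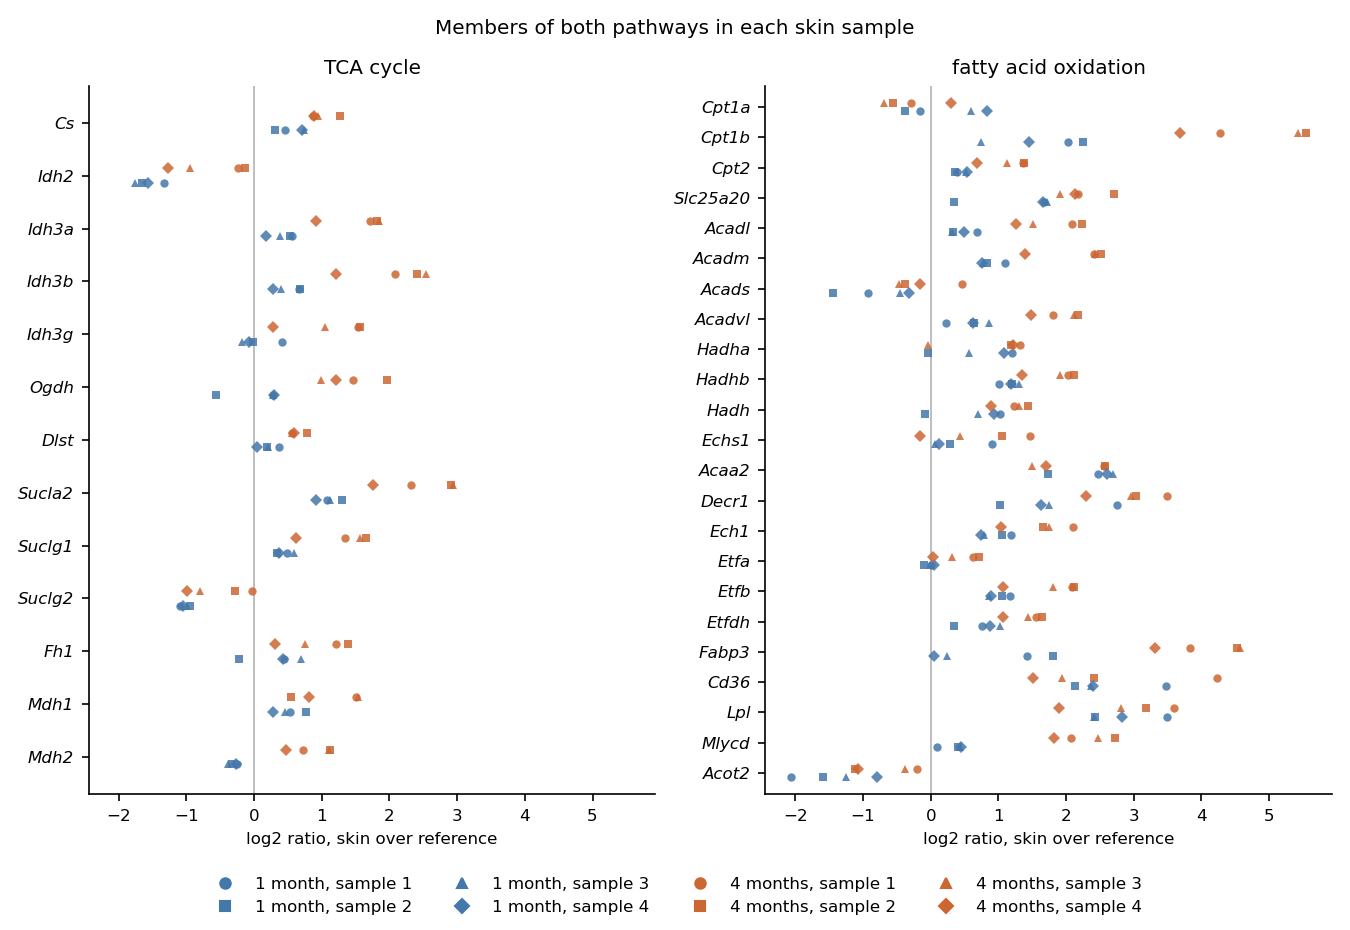
Log2 ratio of skin over reference (horizontal axis) of the 13 TCA cycle members and the 23 measured fatty acid oxidation members in each skin sample, with 1 month in blue and 4 months in orange and 1 marker shape per sample number. Cpt1b and Fabp3 show the widest gap between the ages, and in Idh3a and Acadm 4-month sample 4 lies apart from the other 4-month samples.

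**Figure D2:**
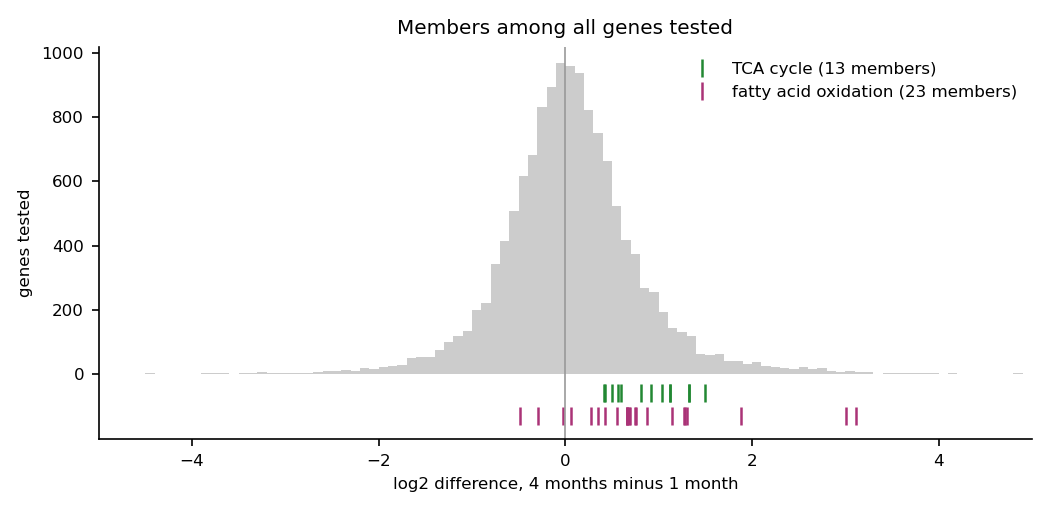
Histogram of the age difference (log2, 4 months minus 1 month, horizontal axis) of the 13501 genes tested (number of genes, vertical axis), with a tick below it for each member. All 13 TCA cycle ticks lie above 0, and 20 of the 23 fatty acid oxidation ticks do, with Cpt1b and Fabp3 far to the right.

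Promoters are shown for 5 members that rose: Fabp3 and Mlycd, which had the lowest adjusted p of all members, and Acadm, Acadvl and Sucla2, the members called higher whose window holds the motif AGGTCA. This motif is the core recognised by many nuclear receptors, among them the PPAR and ERR families that are known to drive genes of both pathways. Each sequence is the 250 bases before the annotated start, 5′ to 3′ on the gene's strand, from RefSeq on GRCm38.p6, and capitals mark the motif on either strand.
Fabp3 (chr4:130308488-130308737, plus strand): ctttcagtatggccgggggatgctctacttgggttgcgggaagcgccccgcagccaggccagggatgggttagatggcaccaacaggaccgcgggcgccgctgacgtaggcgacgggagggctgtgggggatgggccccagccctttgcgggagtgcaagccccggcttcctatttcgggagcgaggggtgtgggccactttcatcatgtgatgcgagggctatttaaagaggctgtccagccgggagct
Mlycd (chr8:119394644-119394893, plus strand): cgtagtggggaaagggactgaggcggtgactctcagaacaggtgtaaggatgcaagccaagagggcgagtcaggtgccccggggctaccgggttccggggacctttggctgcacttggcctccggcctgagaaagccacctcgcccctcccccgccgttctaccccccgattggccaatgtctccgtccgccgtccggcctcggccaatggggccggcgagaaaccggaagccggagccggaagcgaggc
Acadm (chr3:153944644-153944893, minus strand): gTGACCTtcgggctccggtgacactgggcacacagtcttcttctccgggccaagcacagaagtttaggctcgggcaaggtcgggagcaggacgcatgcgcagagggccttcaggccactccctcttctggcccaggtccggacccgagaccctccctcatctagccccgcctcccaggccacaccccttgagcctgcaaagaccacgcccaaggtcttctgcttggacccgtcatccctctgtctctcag
Acadvl (chr11:70015429-70015678, minus strand): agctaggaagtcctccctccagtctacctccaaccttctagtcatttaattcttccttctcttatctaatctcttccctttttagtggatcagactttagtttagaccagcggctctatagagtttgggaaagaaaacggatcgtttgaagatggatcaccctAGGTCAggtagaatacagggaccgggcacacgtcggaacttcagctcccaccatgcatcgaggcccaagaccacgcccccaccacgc
Sucla2 (chr14:73552536-73552785, plus strand): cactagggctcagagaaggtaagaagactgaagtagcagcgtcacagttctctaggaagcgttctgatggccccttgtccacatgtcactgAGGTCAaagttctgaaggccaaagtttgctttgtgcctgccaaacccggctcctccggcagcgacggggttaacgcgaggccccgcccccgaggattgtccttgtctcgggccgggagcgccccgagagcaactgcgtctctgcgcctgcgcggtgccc
The first base of the motif lay 249 bases before the start in Acadm, where the shown strand reads TGACCT, 87 before it in Acadvl and 159 before it in Sucla2. Fabp3 and Mlycd hold no such letters in this window. Of the 36 measured members, 31 had a promoter in the table, and AGGTCA lay on either strand in 7 of them (Acadm, Acadvl, Cd36, Cpt1a, Echs1, Fh1 and Sucla2), against 14% of 32851 promoters of that length. The longer AAGGTCA, which contains AGGTCA, occurred in 1 member, Acadm, and in 4.08% of all promoters. CCAAT, a common promoter box, occurred in 15 of 31 members and 33.8% of all promoters, and CCGGAAG, a core bound by ETS factors, in 4 of 31 and 6.91%. Promoters of Acaa2, Cpt1b, Decr1, Idh3a and Lpl were not matched. A match describes the letters and shows no binding.

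Uptake of fatty acids was represented by Fabp3, Cd36 and Lpl, and of these Fabp3 rose. Fabp3, the fatty acid binding protein of heart and skeletal muscle, had log2 ratios of 1.42, 1.80, 0.24 and 0.05 in 1-month samples 1 to 4 and 3.83, 4.53, 4.57 and 3.31 in 4-month samples 1 to 4. The ages did not overlap, and the lowest 4-month sample was well above the highest 1-month sample. The difference was 3.12 ± 0.46 (SE, limma, adjusted p = 0.00858, n = 4 per age), rank 20 of 13501 genes by rise. The 2 arrays of 1-month sample 1 gave 1.33 and 1.51, and those of 4-month sample 2 gave 4.57 and 4.50. Fabp3 stayed called in all 8 fits without 1 sample. Cd36, a fatty acid receptor of the cell surface, read 3.48, 2.13, 2.36 and 2.39 at 1 month and 4.22, 2.42, 1.95 and 1.51 at 4 months. Its highest and its lowest value were both at 4 months, so the ages overlapped fully, and the difference was -0.02 ± 0.63 (limma adjusted p = 0.990), with a 95% interval of -1.43 to 1.38. Lpl, the lipase that frees fatty acids from circulating lipoproteins, read 3.49, 2.43, 2.41 and 2.83 at 1 month and 3.60, 3.18, 2.81 and 1.89 at 4 months. The Lpl difference was 0.06 ± 0.45 (limma adjusted p = 0.953), with an interval of -0.94 to 1.07. Of 22 alternative settings, 17 kept the sign of the Cd36 difference and 14 that of Lpl. In both Cd36 and Lpl, sample 1 was the highest of each age and 4-month sample 4 the lowest of all.

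The carnitine shuttle had 2 members that rose among 5, Cpt1b and Mlycd, while Cpt1a did not pass the test. Of all genes, 4.19% were called higher. Carnitine palmitoyltransferase I of the outer mitochondrial membrane sets the rate of long-chain oxidation: Cpt1b is its muscle isoform and Cpt1a its liver isoform. Cpt1b read 2.03, 2.25, 0.75 and 1.45 in 1-month samples 1 to 4 and 4.27, 5.55, 5.42 and 3.68 in 4-month samples 1 to 4. No 4-month value came near a 1-month value, and both probes of the gene moved alike, by 3.09 and 3.13. The difference was 3.01 ± 0.50 (limma adjusted p = 0.0117), rank 30 by rise, and it missed the threshold without 1-month sample 1 (adjusted p = 0.0547). Cpt1a read -0.16, -0.38, 0.59 and 0.83 at 1 month and -0.29, -0.56, -0.69 and 0.30 at 4 months. The ages overlapped, the difference was -0.49 ± 0.34 (limma adjusted p = 0.433), and its interval ran from -1.26 to 0.28. Cpt1b minus Cpt1a within each sample was 2.20, 2.62, 0.16 and 0.63 at 1 month and 4.56, 6.11, 6.11 and 3.38 at 4 months. This contrast of isoforms was 3.64 higher at 4 months, with no overlap. The pair was chosen after its values were seen, so this is a description with no test.

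Mlycd had the lowest adjusted p of all members. It encodes malonyl-CoA decarboxylase, which removes malonyl-CoA, the inhibitor of carnitine palmitoyltransferase I. Its log2 ratio was 0.09, 0.41, 0.43 and 0.46 in 1-month samples 1 to 4 and 2.08, 2.72, 2.47 and 1.82 in 4-month samples 1 to 4. All 4-month samples lay above all 1-month samples, and 1-month sample 1 stood below the others of its age. The difference was 1.88 ± 0.26 (limma adjusted p = 0.00753), and the call was kept in all 8 fits without 1 sample. Acacb, no member of either pathway, makes malonyl-CoA at the mitochondrial surface and so opposes Mlycd. Acacb read 1.18, 1.88, 0.64 and 1.09 at 1 month and 3.83, 4.77, 4.15 and 4.25 at 4 months, and rose by 3.02 ± 0.35 (limma adjusted p = 0.0045), also in all 8 of those fits, and by 1.48 with exact zeros kept as values (adjusted p = 0.0239). Genes for the maker and the remover of malonyl-CoA were thus both higher at 4 months. The other shuttle members did not pass. Slc25a20, the carnitine-acylcarnitine carrier of the inner membrane, read 1.67, 0.35, 1.72 and 1.65 at 1 month and 2.17, 2.71, 1.91 and 2.14 at 4 months, a difference of 0.87 ± 0.41 (limma adjusted p = 0.228) in which 1-month sample 2 stood far below its group. Cpt2, which regenerates acyl-CoA in the matrix, lay between 0.36 and 0.54 at 1 month and between 0.68 and 1.38 at 4 months, without overlap, with a difference of 0.66 ± 0.24 (limma adjusted p = 0.120).

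**Figure D3:**
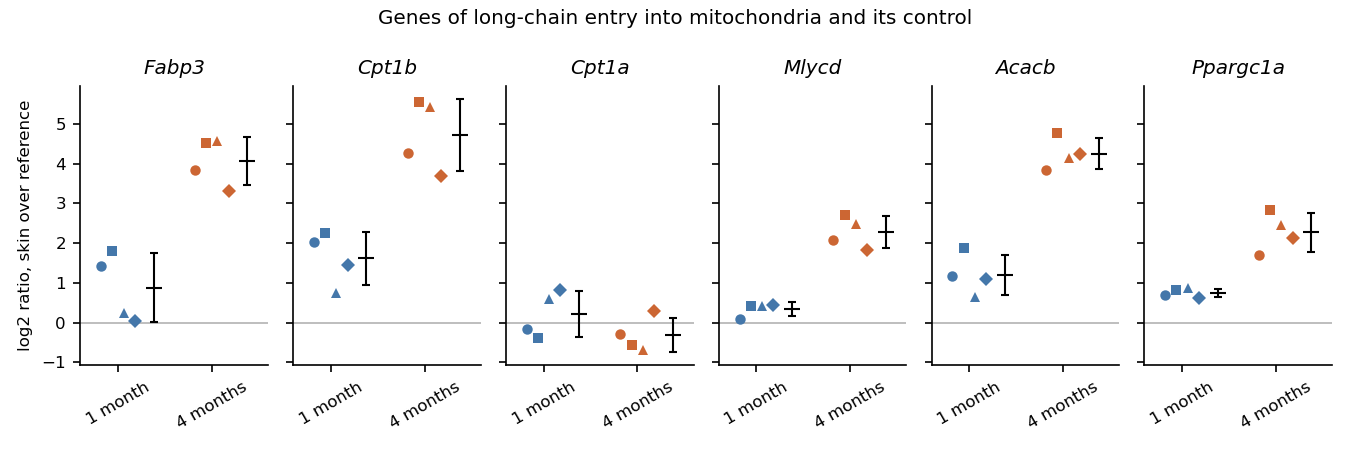
Log2 ratio of skin over reference (vertical axis) of Fabp3, Cpt1b, Cpt1a, Mlycd, Acacb and Ppargc1a in each of 4 skin samples at 1 month (blue) and 4 at 4 months (orange), with the mean and SD of each age as a black cross and bar. All panels except Cpt1a show 4-month samples above every 1-month sample.

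The acyl-CoA dehydrogenases take the first step of each round of oxidation. Of these 4 members 3 rose, with nearly equal differences, against 4.19% of all genes called higher. Acadvl, which acts on very long chains, read 0.23, 0.65, 0.87 and 0.62 in 1-month samples 1 to 4 and 1.81, 2.17, 2.11 and 1.48 in 4-month samples 1 to 4, a difference of 1.27 ± 0.26 (limma adjusted p = 0.0217). Acadl, the long-chain enzyme, read 0.69, 0.33, 0.31 and 0.49 at 1 month and 2.10, 2.23, 1.51 and 1.26 at 4 months, a difference of 1.31 ± 0.30 (adjusted p = 0.0337). Acadm, the medium-chain enzyme, read 1.10, 0.82, 0.77 and 0.75 at 1 month and 2.42, 2.52, 2.42 and 1.40 at 4 months, a difference of 1.29 ± 0.30 (adjusted p = 0.0352). In all 3 genes each 4-month sample lay above each 1-month sample, and 4-month sample 4 was the lowest of its age. Acads, the short-chain enzyme, read -0.92, -1.45, -0.46 and -0.32 at 1 month and 0.46, -0.38, -0.46 and -0.17 at 4 months. These overlapped, and the Acads difference was 0.69 ± 0.33 (limma adjusted p = 0.237), with an interval of -0.05 to 1.43 that holds the differences of the longer-chain enzymes. These calls leaned on single samples. Acadvl missed the threshold without 1-month sample 1 (adjusted p = 0.0961) or 4-month samples 1, 2 or 3 (0.0501, 0.0508 and 0.0554). Acadl lost it without 1-month samples 1 or 2 (0.121 and 0.0786) or 4-month samples 1 or 2 (0.0839 and 0.0610), and Acadm without 1-month samples 1 or 2 (0.102 and 0.0719) or 4-month samples 1, 2 or 3 (0.0884, 0.0751 and 0.0772).

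The steps after the first dehydrogenation held no member that passed the limma test. Of the 5 genes for hydration to thiolysis, 1 had an unadjusted p under 0.05, against 24.3% of all genes, and their median difference was 0.34. Hadhb, the thiolase subunit of the trifunctional protein, lay between 1.01 and 1.30 at 1 month and between 1.36 and 2.12 at 4 months, without overlap, with a difference of 0.66 ± 0.24 (limma adjusted p = 0.131). Hadha, its partner subunit, read 1.2, -0.04, 0.56 and 1.08 at 1 month and 1.32, 1.19, -0.03 and 1.22 at 4 months. The low samples were 1-month sample 2 and 4-month sample 3, those highest in muscle and epidermis markers. The 2 Hadha probes used read 0.51 and -0.59 in 1-month sample 2, and 1.08 and -1.145 in 4-month sample 3. The Hadha difference was 0.27 ± 0.46 (limma adjusted p = 0.781). Hadh, the short-chain hydroxyacyl-CoA dehydrogenase, differed by 0.56 ± 0.33 (adjusted p = 0.342), and Echs1, the short-chain enoyl-CoA hydratase, by 0.34 ± 0.41 (adjusted p = 0.668). Acaa2, the matrix thiolase that ends a round, read 2.48, 1.74, 2.69 and 2.61 at 1 month and 2.56, 2.58, 1.49 and 1.70 at 4 months. Its difference was -0.29 ± 0.39 (limma adjusted p = 0.710), and it was, with Cpt1a and Cd36, among the 3 oxidation members with a difference below 0. With the muscle list mean as a covariate Acaa2 differed by 0.16, Cd36 by 0.46 and Hadha by 0.90 (limma adjusted p = 0.834, 0.747 and 0.191).

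Members that deal with unsaturated acids, acyl-CoA hydrolysis and electron transfer had positive differences that did not pass. Decr1, the dienoyl-CoA reductase needed for unsaturated chains, read 2.75, 1.02, 1.75 and 1.64 at 1 month and 3.49, 3.03, 2.96 and 2.29 at 4 months. Of the 1-month samples, sample 1 alone reached into the 4-month range, and the difference was 1.14 ± 0.47 (limma adjusted p = 0.170). Ech1, which shifts double bonds of dienoyl-CoA, differed by 0.68 ± 0.28 (adjusted p = 0.169). Acot2, a mitochondrial acyl-CoA thioesterase, lay below the reference in every sample and differed by 0.74 ± 0.37 (adjusted p = 0.253). The electron transfer flavoprotein subunits Etfa and Etfb, which collect electrons from the acyl-CoA dehydrogenases, differed by 0.42 ± 0.23 and 0.76 ± 0.29 (adjusted p = 0.308 and 0.142). Etfdh, which hands these electrons to ubiquinone, lay between 0.34 and 1.02 at 1 month and between 1.07 and 1.64 at 4 months, with a difference of 0.66 ± 0.25 (adjusted p = 0.14). Without 4-month sample 4, Cpt2, Hadhb, Ech1, Etfb and Etfdh passed the test (limma adjusted p = 0.0211, 0.0204, 0.0268, 0.0124 and 0.0481).

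**Figure D4:**
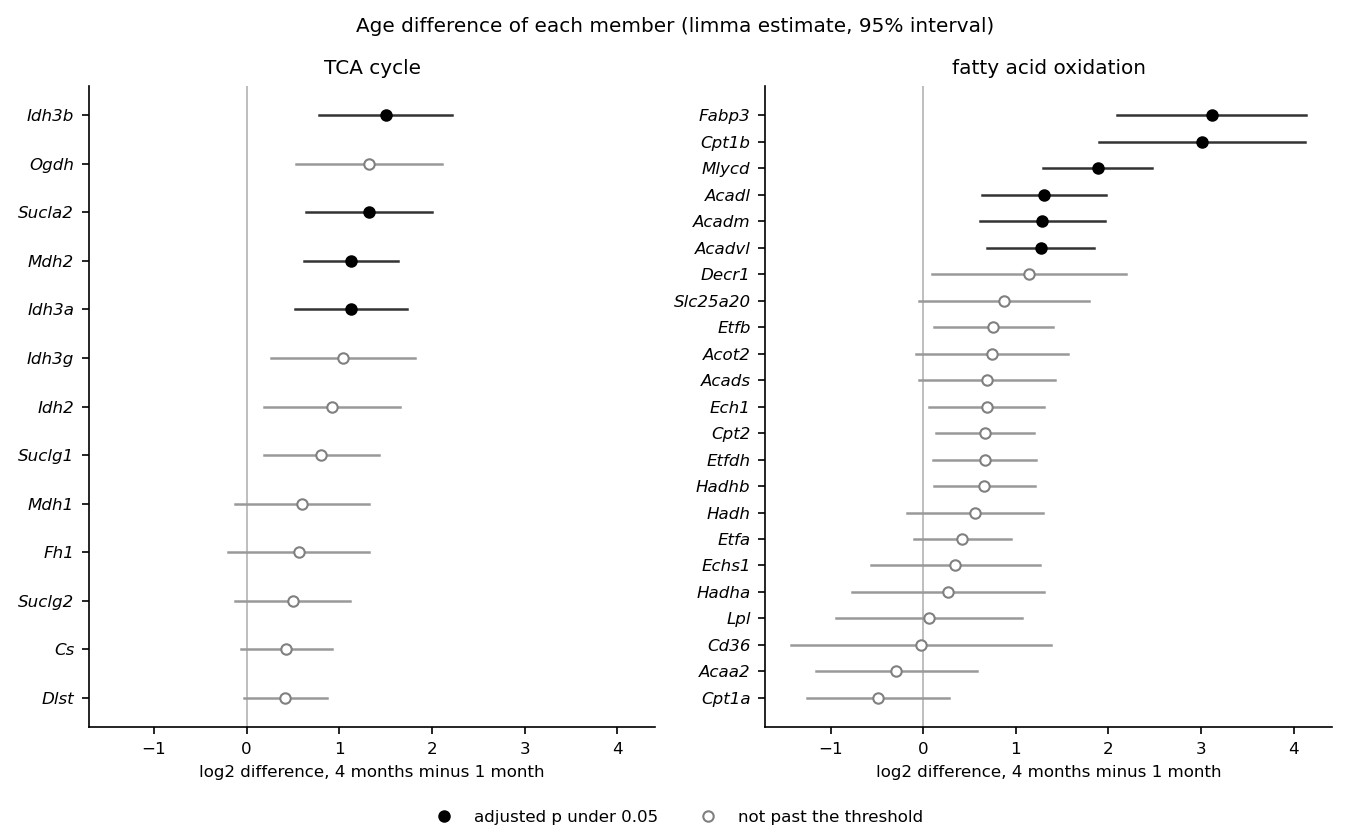
Age difference of each measured member (log2, 4 months minus 1 month, horizontal axis) as the limma estimate with its 95% interval, sorted within each pathway, with filled points for an adjusted p under 0.05. The estimates run from 0.42 (Dlst) to 1.5 (Idh3b) in the TCA cycle and from -0.49 (Cpt1a) to 3.12 (Fabp3) in fatty acid oxidation.

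In the TCA cycle, the NAD-dependent isocitrate dehydrogenase held 2 of the 4 members that rose. Its catalytic subunit Idh3a read 0.56, 0.53, 0.39 and 0.18 in 1-month samples 1 to 4 and 1.72, 1.82, 1.84 and 0.92 in 4-month samples 1 to 4, a difference of 1.13 ± 0.27 (limma adjusted p = 0.0389). The subunit Idh3b read 0.66, 0.68, 0.39 and 0.28 at 1 month and 2.08, 2.41, 2.54 and 1.21 at 4 months, a difference of 1.5 ± 0.32 (adjusted p = 0.0265). Neither gene had overlapping ages, and in both 4-month sample 4 was lowest of its age by a wide margin. The regulatory subunit Idh3g read 0.42, -0.01, -0.18 and -0.07 at 1 month and 1.54, 1.57, 1.04 and 0.27 at 4 months, and 4-month sample 4 fell within the 1-month range. The Idh3g difference was 1.04 ± 0.35 (limma adjusted p = 0.101). Cs, citrate synthase, the entry enzyme of the cycle, lay between 0.31 and 0.73 at 1 month and between 0.87 and 1.27 at 4 months. Its difference was 0.43 ± 0.22 (limma adjusted p = 0.271), and its 2 probes differed, with changes of 0.04 and 0.84. Idh2, the NADP-dependent isocitrate dehydrogenase of the matrix, read -1.34, -1.66, -1.76 and -1.57 at 1 month and -0.24, -0.13, -0.95 and -1.27 at 4 months, below the reference throughout. The ages did not overlap and the difference was 0.92 ± 0.33 (limma adjusted p = 0.121). Idh3a lost its call without 1-month samples 1, 2 or 4 (adjusted p = 0.133, 0.0707 and 0.0542) or 4-month samples 1, 2 or 3 (0.0952, 0.0816 and 0.0841). Idh3b lost it without 1-month sample 1 (0.0973) or 4-month samples 1, 2 or 3 (0.0620, 0.0588 and 0.0562), and without 4-month sample 4 Idh2 and Idh3g passed (0.0240 and 0.00949).

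From oxoglutarate to succinate, Sucla2 rose, and Ogdh lay just outside the threshold. Ogdh, the decarboxylating subunit of the oxoglutarate dehydrogenase complex, read 0.29, -0.57, 0.27 and 0.30 at 1 month and 1.46, 1.97, 0.99 and 1.21 at 4 months. No samples overlapped, 1-month sample 2 was far below its group, and the difference was 1.32 ± 0.35 (limma adjusted p = 0.0521). Ogdh passed in 11 of 22 alternative fits, including those without 1-month sample 3, 1-month sample 4 or 4-month sample 4 (adjusted p = 0.0417, 0.0428 and 0.0286). Dlst, the succinyl-transferring subunit of that complex, read 0.36, 0.19, 0.21 and 0.05 at 1 month and 0.57, 0.78, 0.57 and 0.59 at 4 months, a difference of 0.42 ± 0.20 (limma adjusted p = 0.242). Its probes disagreed: 2 changed by 0.80 and 0.84, and the third by -0.37. Succinyl-CoA ligase pairs a shared subunit, Suclg1, with Sucla2 in the ADP-forming enzyme or Suclg2 in the GDP-forming enzyme. Sucla2 read 1.07, 1.29, 1.12 and 0.92 at 1 month and 2.32, 2.91, 2.94 and 1.76 at 4 months, and rose by 1.32 ± 0.30 (limma adjusted p = 0.0337). Suclg1 read 0.49, 0.34, 0.59 and 0.37 at 1 month and 1.35, 1.65, 1.56 and 0.62 at 4 months, without overlap, a difference of 0.81 ± 0.28 (limma adjusted p = 0.107). Suclg2 read -1.10, -0.94, -1.0 and -1.06 at 1 month and -0.03, -0.28, -0.81 and -0.99 at 4 months, and 4-month sample 4 lay within the 1-month range. The Suclg2 difference was 0.50 ± 0.28 (limma adjusted p = 0.313). Sucla2 minus Suclg2 was 2.17, 2.23, 2.12 and 1.98 at 1 month and 2.35, 3.20, 3.75 and 2.75 at 4 months. This contrast was 0.89 higher at 4 months and did not overlap, again a description of a pair chosen after its values were seen. Sucla2 lost its call without 1-month samples 1 or 2 (limma adjusted p = 0.130 and 0.0536) or 4-month samples 1, 2 or 3 (0.0653, 0.0714 and 0.0727), and Suclg1 passed without 4-month sample 4 (0.00944).

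The last steps of the cycle held 1 member that rose, Mdh2, the malate dehydrogenase of the matrix. Mdh2 read -0.26, -0.32, -0.38 and -0.26 in 1-month samples 1 to 4 and 0.72, 1.12, 1.11 and 0.47 in 4-month samples 1 to 4. It lay below the reference in every 1-month sample and above it in every 4-month sample, and the difference was 1.13 ± 0.23 (limma adjusted p = 0.0214). Mdh2 missed the threshold without 1-month sample 1 (adjusted p = 0.0907) or 4-month sample 3 (0.0538). Mdh1, the cytosolic malate dehydrogenase of the malate-aspartate shuttle, read 0.53, 0.77, 0.45 and 0.28 at 1 month and 1.5, 0.54, 1.54 and 0.81 at 4 months. Its ages overlapped through 4-month sample 2, where its probes disagreed: 1, with missing values in other samples, read -0.97, and the others 1.04 and 1.54. In those others it was 4-month sample 4 that did not exceed the 1-month samples. It read 0.42 in the first, below all 1-month values (0.58 to 0.85), and 0.87 in the second, within their range (0.45 to 1.21). The Mdh1 difference was 0.60 ± 0.32 (limma adjusted p = 0.295), which passed without 4-month sample 4 (adjusted p = 0.0440). An Mdh1 probe was also the member probe on which repeat arrays differed most, by 0.73 in 1-month sample 1 and 0.97 in 4-month sample 2. Over member probes, repeat arrays differed by a median of 0.19 and 0.24 in these samples. Fh1, fumarase, read 0.44, -0.22, 0.69 and 0.42 at 1 month and 1.21, 1.39, 0.75 and 0.31 at 4 months, and its difference was 0.56 ± 0.34 (limma adjusted p = 0.356).

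Calls among other genes around the cycle were all higher at 4 months, and their counts stand beside 4.19% of all genes called higher. Of 10 further TCA cycle genes tested, 1 rose, with a median difference of 0.57. This was Sdhb, the iron-sulfur subunit of succinate dehydrogenase (1.17 ± 0.30, limma adjusted p = 0.0487), which stayed called in 1 of 8 fits without 1 sample, that without 4-month sample 4, while the rest gave adjusted p between 0.0528 and 0.181. Its partner subunits Sdha, Sdhc and Sdhd differed by 1.05, 1.27 and 0.84 (limma adjusted p = 0.105, 0.0712 and 0.221). Of 14 genes that feed the cycle or exchange its intermediates, 3 rose, with a median of 0.86. At an unadjusted limma p under 0.05 in either direction were 10 of these 14 and 3 of the 10 further TCA cycle genes, against 24.3% of all genes. Among those 10 of 14, Slc25a13, a carrier of the malate-aspartate shuttle, and Me2 were lower at 4 months, and the rest were higher. Slc25a13 differed by -1.30 ± 0.41 and Me2 by -0.67 ± 0.29 (limma adjusted p = 0.0863 and 0.194). Got1, the cytosolic aspartate aminotransferase of the malate-aspartate shuttle, read -1.02, -0.80, -1.59 and -1.54 at 1 month and 1.39, 1.56, 0.92 and 0.45 at 4 months. All 1-month samples lay below the reference and all 4-month samples above it, and the difference was 2.29 ± 0.33 (limma adjusted p = 0.00849), called in all 8 fits without 1 sample. Slc25a11, the oxoglutarate carrier of the same shuttle, rose by 1.31 ± 0.29 (limma adjusted p = 0.0301), and Me3, a mitochondrial malic enzyme, by 2.69 ± 0.58 (adjusted p = 0.0276). Slc25a11 and Me3 both missed the threshold when 1-month sample 1 was left out (0.135 and 0.0961), and likewise for 4-month sample 1 (0.0679 and 0.0574), sample 2 (0.0513 and 0.0537) or sample 3 (0.0623 and 0.0582). With exact zeros kept as values, the Me3 difference was 0.56 (adjusted p = 0.125).

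Beyond the 24 oxidation members, 2 of 22 further genes of fatty acid handling rose, against 4.19% of all genes, with a median difference of 0.20. Besides Acacb this was Acsl6, an activating enzyme of long-chain fatty acids, which differed by 2.44 ± 0.31 (limma adjusted p = 0.00648) and was called in all 8 fits without 1 sample. With exact zeros kept as values, the Acsl6 difference was 0.62 (adjusted p = 0.0222). Fabp4, the binding protein of fat cells, differed by -0.24 (limma adjusted p = 0.818). At an unadjusted limma p under 0.05 in either direction were 8 of these 22 genes, against 24.3% of all genes. Of those 8, Acad9 and Acot1 were lower at 4 months and the rest higher. Acad9 differed by -0.95 ± 0.33 and Acot1 by -1.31 ± 0.54 (limma adjusted p = 0.111 and 0.172). Of 14 peroxisomal oxidation genes 1 rose, Phyh, which starts the breakdown of branched chains (1.51 ± 0.31, adjusted p = 0.0219), and it missed the threshold without 1-month sample 1 (0.0970) or 4-month sample 1 (0.0584). None of 3 ketone body genes passed the limma test, with 0 at an unadjusted p under 0.05. Of 10 genes of fatty acid synthesis, Mlxipl, a carbohydrate-responsive transcription factor, rose by 1.85 ± 0.32 (adjusted p = 0.0138). Mlxipl was called in 19 of 22 alternative settings. It missed the threshold with exact zeros kept as values (2.34, limma adjusted p = 0.0996), with the muscle list mean as a covariate (1.64, 0.0541) and with means per ID number (0.0848). Scd2, a desaturase, was the member of the synthesis list that fell, by 2.05 ± 0.33 on the log2 scale (adjusted p = 0.0109). This Scd2 call missed the threshold without 1-month sample 1 (0.0549).

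Known regulators of both pathways held 3 genes that rose among 14, against 4.19% of all genes, with a median difference of 0.46. Ppargc1a, the coactivator known to drive mitochondrial genes, read 0.70, 0.82, 0.86 and 0.62 at 1 month and 1.69, 2.82, 2.45 and 2.12 at 4 months. The ages did not overlap, and the rise was 1.47 ± 0.28 (limma adjusted p = 0.0184), not called without 1-month sample 1 (adjusted p = 0.0880). Lpin1, a phosphatidate phosphatase that also acts as a coactivator, rose by 2.64 ± 0.37 (limma adjusted p = 0.00753), in all 8 fits without 1 sample. Esrra, an estrogen-related receptor, rose by 0.84 ± 0.22 (adjusted p = 0.0481). It stayed called in 1 of those 8 fits, with adjusted p between 0.0530 and 0.191 in the rest. With 1 probe per gene, the Esrra difference was 0.33 (adjusted p = 0.439). The PPAR genes did not pass: Ppara differed by 0.65, Ppard by 0.18 and Pparg by 0.09 (limma adjusted p = 0.260, 0.706 and 0.949). Of 4 tested PPAR targets outside both pathways, Pdk4, the kinase that shuts off pyruvate dehydrogenase, rose by 4.17 ± 0.35 (limma adjusted p = 0.00216). Angptl4, Plin2 and Fgf21 differed by 0.10, 0.20 and -0.21 (adjusted p = 0.908, 0.848 and 0.738).

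Markers of the cell types that carry these pathways were measured in the same samples. In bulk skin, fewer cells of a type and less RNA per cell cannot be told apart. Of 20 skeletal muscle markers 1 rose, Atp2a1, the calcium pump of fast fibres (1.14 ± 0.29, limma adjusted p = 0.0463), against 4.19% of all genes. A difference above 0 was found in 18 of the 20 markers, against 52.3% of all genes. Their differences ran from -0.08 to 1.92, with a median of 0.54. At an unadjusted limma p under 0.05 were 5 of the markers, all higher at 4 months. Of all genes, 13.2% were higher at that p and 24.3% passed it in either direction. The samples of the ages did not overlap, with 4 months higher, in 5 of the markers, against 10.9% of all genes. Atp2a1 stayed called in 2 of 8 fits without 1 sample, with adjusted p up to 0.164 in the rest, and its difference was 0.61 after quantile normalization (0.0955) and 1.93 with 1 probe per gene (0.0173). The muscle list mean was 4.78, 5.91, 4.39 and 4.58 in 1-month samples 1 to 4 and 5.10, 5.77, 6.91 and 5.26 in 4-month samples 1 to 4. The ages overlapped through 1-month sample 2, which exceeded 3 of the 4-month samples. The epidermis list mean was highest in the same samples as the muscle list mean, 1-month sample 2 and 4-month sample 3. The muscle covariate thus does not separate muscle from epidermis markers. With the muscle list mean as a covariate, the median difference was 1.02 in the TCA cycle and 0.77 in fatty acid oxidation, and 1 and 3 members were called, against 1.14% of all genes called higher. Those called were Ogdh (limma adjusted p = 0.0406), Fabp3 (2.71, 0.0250), Cpt1b (2.58, 0.0390) and Mlycd (1.77, 0.0320). Of 6 genes of muscle oxidative metabolism 2 rose, against 4.19% of all genes. These were Slc25a4, an ADP/ATP carrier, by 2.51 ± 0.32 (adjusted p = 0.00698) and Cox7a1, a cytochrome oxidase subunit, by 2.05 ± 0.47 (adjusted p = 0.0338). Cox6a2, Cox8b, Mb and Ckmt2 did not pass, with differences of 1.89, 0.60, 0.17 and 0.07 (limma adjusted p = 0.0527, 0.526, 0.900 and 0.967). Cox7a1 missed the threshold without 1-month sample 1 (0.125) or 4-month samples 1, 2 or 3 (0.0584, 0.0722 and 0.0673), and Slc25a4 was called in all 8 of those fits. The slow fibre list had 7 genes tested, none called and 0 at an unadjusted limma p under 0.05. Its median difference was 0.68.

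White adipocyte markers had no call among 7 tested, with 0 at an unadjusted limma p under 0.05, and a median difference of 0.06. Their list mean was 3.93, 3.31, 3.03 and 3.22 at 1 month and 4.42, 3.76, 3.53 and 2.43 at 4 months, with the highest and the lowest value both at 4 months. Cd36 and Lpl shared the order of the extremes, sample 1 of 4 months highest and sample 4 of 4 months lowest. With this list mean as a covariate, 6 TCA members and 6 oxidation members were called, against 5.46% of all genes called higher, and the medians were 0.84 and 0.63. Of 13 cell division genes 12 fell, with a median of -1.74, and of 8 growing hair follicle genes Lef1, Msx1 and Hoxc13 fell, with a median of -1.43. Of all genes, 3.06% were called lower. The cell division mean lay between -1.19 and -0.65 at 1 month and between -3.46 and -2.16 at 4 months, and 4-month sample 4, the lowest of its age in both pathway means, was the highest of its age here. The follicle mean lay between 3.4 and 3.91 at 1 month and between 0.66 and 2.13 at 4 months. Of 11 epidermis genes 1 rose, Sbsn (1.09 ± 0.27, adjusted p = 0.0411), against 4.19% of all genes, and the list median was 0.18. Macrophage genes had no call among 8 (3 at an unadjusted p under 0.05, against 24.3% of all genes, median 0.93), and fibroblast genes none among 8 (2 at an unadjusted p under 0.05, median -0.65). The part of dividing, follicle, macrophage and fibroblast cells in the pathway differences was not tested.

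**Figure D5:**
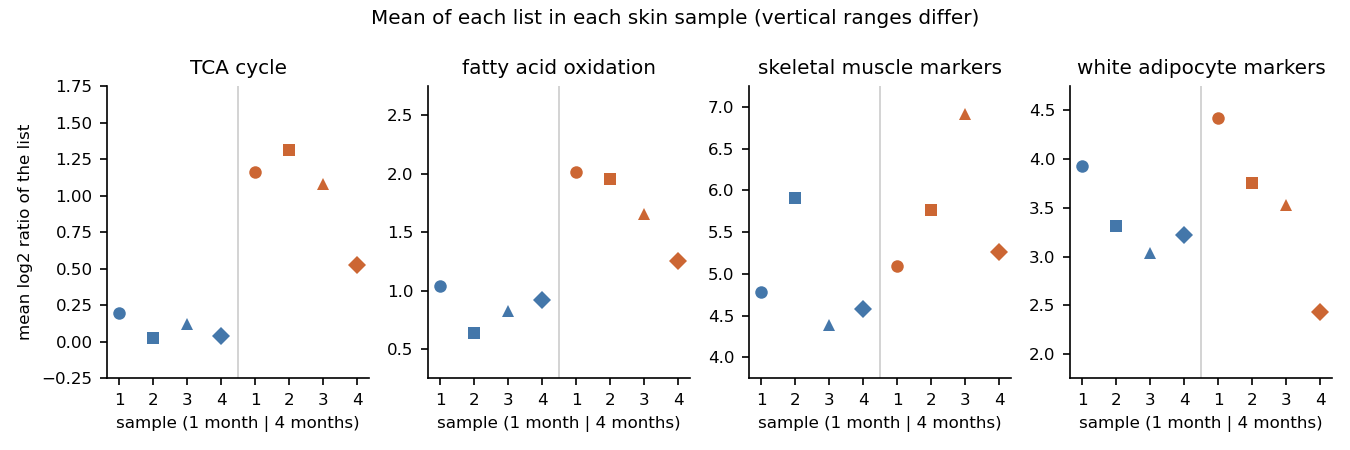
Mean log2 ratio (vertical axis, range differing by panel) over the TCA cycle members, the fatty acid oxidation members, the skeletal muscle markers and the white adipocyte markers in each skin sample (horizontal axis, 1 month left and 4 months right of the line). The pathway means separate the ages in all 8 samples, while the muscle and adipocyte means overlap between the ages.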

How the data were processed

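Tsk2 skin, 4 samples at 1 month and 4 at 4 months, was measured on 10 arrays in 2 colours. Per the labels' protocols, total RNA came from a fibrous-tissue kit and 200 ng was labelled. The values are log2 ratios of the dyes as the authors deposited them. Their background correction, normalization and log base were not given in the sources used here. In the table the greatest size, 11.2, exceeds the natural log (11.1) and log10 (4.82) of a 16-bit range, so log2 is likely. Exact zeros, 26.1% to 47.4% of an array's probes, were read as not measured, the sign was turned, and repeat arrays of a sample were averaged. Of 41174 probes, 32664 had 1 gene symbol, 45 several and 8465 none, and probes with 1 symbol and at least 3 values at each age were averaged per gene. Missing values of a gene with several probes were filled by an additive probe and sample fit, which among members touched Mdh1.

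Age was tested with limma 3.58.1 (R 4.3.3, statmod 1.5.0) by lmFit and eBayes, with the ID number as a random block (consensus correlation 0.313) and Benjamini-Hochberg adjustment over 13501 genes, called at 0.05. Differences are limma's block-weighted estimates and can depart slightly from those of plain means. No list was tested. The scripts were tested on simulated data. Every measured member was named, and of the other lists each gene past the threshold. Further genes named are partners or family of those, chosen after values were seen. Members and lists were chosen with earlier results of these data known. Promoters came from RefSeq and were searched on both strands. The 22 alternatives were no block, means per ID number, zeros kept, quantile normalization, centring each array on its median, the muscle list, the white adipocyte list or the ID suffix as a covariate, 1 probe per gene, first arrays only, values required in all 8 or in at least 2 samples of each age, eBayes with trend and robust, leaving out each of 8 samples, and leaving out 1-month sample 2 with 4-month sample 3.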

Additional observations from a re-analysis of the deposited data

Results flagged for a closer look

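In 10 of 104 groups of 4 samples, the highest or lowest sample lay apart from the others of its age by Dixon's 95% criterion. The groups share the same 8 samples, and genes outside the pathways entered because they were called. The count is therefore not set against a chance rate. Among members, 4-month sample 4 was low in Idh3a, at 0.92 against 1.72 to 1.84 in the other samples, and in Acadm, at 1.40 against 2.42 to 2.52. In 1-month sample 2, Ogdh was low, at -0.57 against 0.27 to 0.30, and so was Slc25a20, at 0.35 against 1.65 to 1.72. Dlst was high in 4-month sample 2, at 0.78 against 0.57 to 0.59. Hadha was low in 4-month sample 3, at -0.0325 against 1.19 to 1.32, and Mlycd in 1-month sample 1, at 0.0895 against 0.41 to 0.46. The low Hadha value rested on 1 of 2 probes, at -1.145, while the other read 1.08. Among other genes, Slc25a11 was high in 1-month sample 2, at 0.46 against 0.09 to 0.12. Esrra was low in 1-month sample 3, at -0.002 against 0.18 to 0.19, and Pdk4 in 1-month sample 4, at 1.87 against 2.55 to 2.66.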

How the results depend on the processing

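No paired analysis was possible because no ID number occurs at both ages. Over all genes, 566 were called higher and 413 lower as reported. Without the block these were 1113 and 909, and 7 TCA and 6 oxidation members were called. With 1 mean per ID number 0 and 0 genes passed in limma, with 2568 of 14469 at an unadjusted p under 0.05, and 0 members of each pathway did. With zeros kept as values, 337 of 19532 genes were called higher (1.73%), with 1 TCA and 4 oxidation members. With the muscle list as a covariate, 154 genes were called higher and 160 lower, with 1 TCA and 3 oxidation members. With the ID suffix as a covariate, 349 and 232 genes were called, with 2 TCA and 4 oxidation members. Without 1-month sample 2 and 4-month sample 3 together, at the correlation of all 8 samples, 2 TCA and 5 oxidation members were called. Leaving out 1 sample at a time gave 102 to 1215 genes higher, 55 to 957 lower, 0 to 9 TCA members and 2 to 11 oxidation members. No member was called lower in any of the 22 settings. Both pathway medians stayed above 0 in all 22, with other scaling of the arrays included. Fabp3 and Mlycd kept their calls in 21 of 22 settings and Cpt1b in 20, lost with means per ID number (limma adjusted p = 0.104, 0.0937 and 0.110) and, for Cpt1b, without 1-month sample 1. Mdh2 kept its call in 18, Acadvl in 16, Idh3b and Acadl in 14, Acadm in 11, Idh3a in 10 and Sucla2 in 9. No per-probe background values were used here, so what dim signal limits was not measured.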
